A study of Mus musculus with 8 samples.

Results

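The genes described here encode collagens and other proteins of the extracellular matrix. They were chosen by symbol from the table of expression levels: every gene whose symbol names a collagen chain, 44 in all, and 21 further genes for matrix glycoproteins, proteoglycans, crosslinking enzymes, matrix proteases and their inhibitors, and contractile proteins. These 65 genes stood among 51398 gene names. The data are RNA-seq of mouse embryonic stem (ES) cells: 8 libraries in 4 groups, each a pair that the labels call biological duplicates. Total estimated counts per group were between 76501619 and 90728747.

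The cells in every group were blastocyst-derived ES cells of the C57BL/6J background that carried floxed Mll1 alleles (Mll1fl/fl) and a tamoxifen-activated Cre (Cre-ER TM), grown with LIF on feeder layers of mouse embryonic fibroblasts. In the MM401 group MLL1, a histone H3K4 methyltransferase, was inhibited with MM401 at 100 µM for 5 days in serum medium. In the Mll1_deleted group 4-hydroxytamoxifen (4-OHT) at 5 µM for 5 days, also in serum medium, activated Cre to delete the floxed alleles. The 2i group was kept for 5 days in serum-replacement medium with PD03259010 (so spelled in the labels; a MEK inhibitor) at 1 µM and CHIR99021 (which inhibits GSK3) at 3 µM, so inhibitors and medium cannot be told apart. The untreated group, labelled WT, had the same floxed genotype, and its medium was not given in the sources used here. A vehicle control is not among the groups. The labels do not say how many ES cell clones were used, or whether feeder cells were removed before RNA was extracted.

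Collagens are built from chains that wind into a helix inside the cell, leave it as procollagen and assemble outside it. Fibrillar collagens such as types I, III and V form the tensile fibres that fibroblasts lay down. Type IV collagen forms the sheet of basement membranes and is made in the early embryo by the extraembryonic endoderm. Undifferentiated ES cells are not known as a main source of fibrillar collagen, whereas fibroblasts, including those used as feeder layers, are. Lysyl oxidases crosslink the fibres, small leucine-rich proteoglycans coat them, and matrix metalloproteinases and their tissue inhibitors set how fast they are cut.

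Values below are FPKM, fragment numbers scaled to transcript length and to sequencing depth. The authors combined the 2 libraries of each group into 1 value, so no spread between libraries can be given and nothing below is a statistical test. Square brackets hold the lower and upper limit that the authors deposited beside each value. The level of confidence behind that interval was not stated in the headers. For the members at FPKM of at least 1, its upper arm had a median width of 25.7% of the value (range 15.9% to 378%). Ratios are log2 of (FPKM + 1) in the first group over (FPKM + 1) in the second. A gene was called higher or lower when this ratio reached 1 in either direction (2-fold), provided that 1 of the groups had an FPKM of 1 or more and both had a status of OK.

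Most of the matrix genes were lowest in Mll1_deleted cells and highest in 2i or MM401 cells. Of the 36 members that reached 10 FPKM in some group with a status of OK, 23 had their highest value in 2i, 12 in MM401, 1 in Mll1_deleted and 0 in untreated cells. The lowest value of these 36 was in Mll1_deleted cells for 32, in 2i cells for 2 and in untreated cells for 2. With the cut at 1 FPKM, 2i did not lead. Of these 54 members, 25 were highest in 2i, 25 in MM401, 3 in Mll1_deleted and 1 in untreated cells. The lowest value of the 54 was in Mll1_deleted cells for 39, in untreated cells for 9 and in 2i cells for 6. Such counts were not made for all loci, so no background share stands beside them. Summed over 64 members, without Fn1 (fibronectin), which had the status FAIL in the 3 treated groups, FPKM was 4356 in MM401, 2066 in Mll1_deleted and 6575 in 2i cells, against 3149 in untreated cells. These 64 members took 1.59% of the estimated counts in MM401, 0.653% in Mll1_deleted and 1.90% in 2i cells, against 0.997% in untreated cells. With Fn1 the shares were 2.00% in MM401, 1.03% in Mll1_deleted and 2.23% in 2i cells, against 1.31% in untreated cells. In such bulk cultures, fewer cells of a type and less RNA per cell cannot be told apart.

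**Figure D1:**
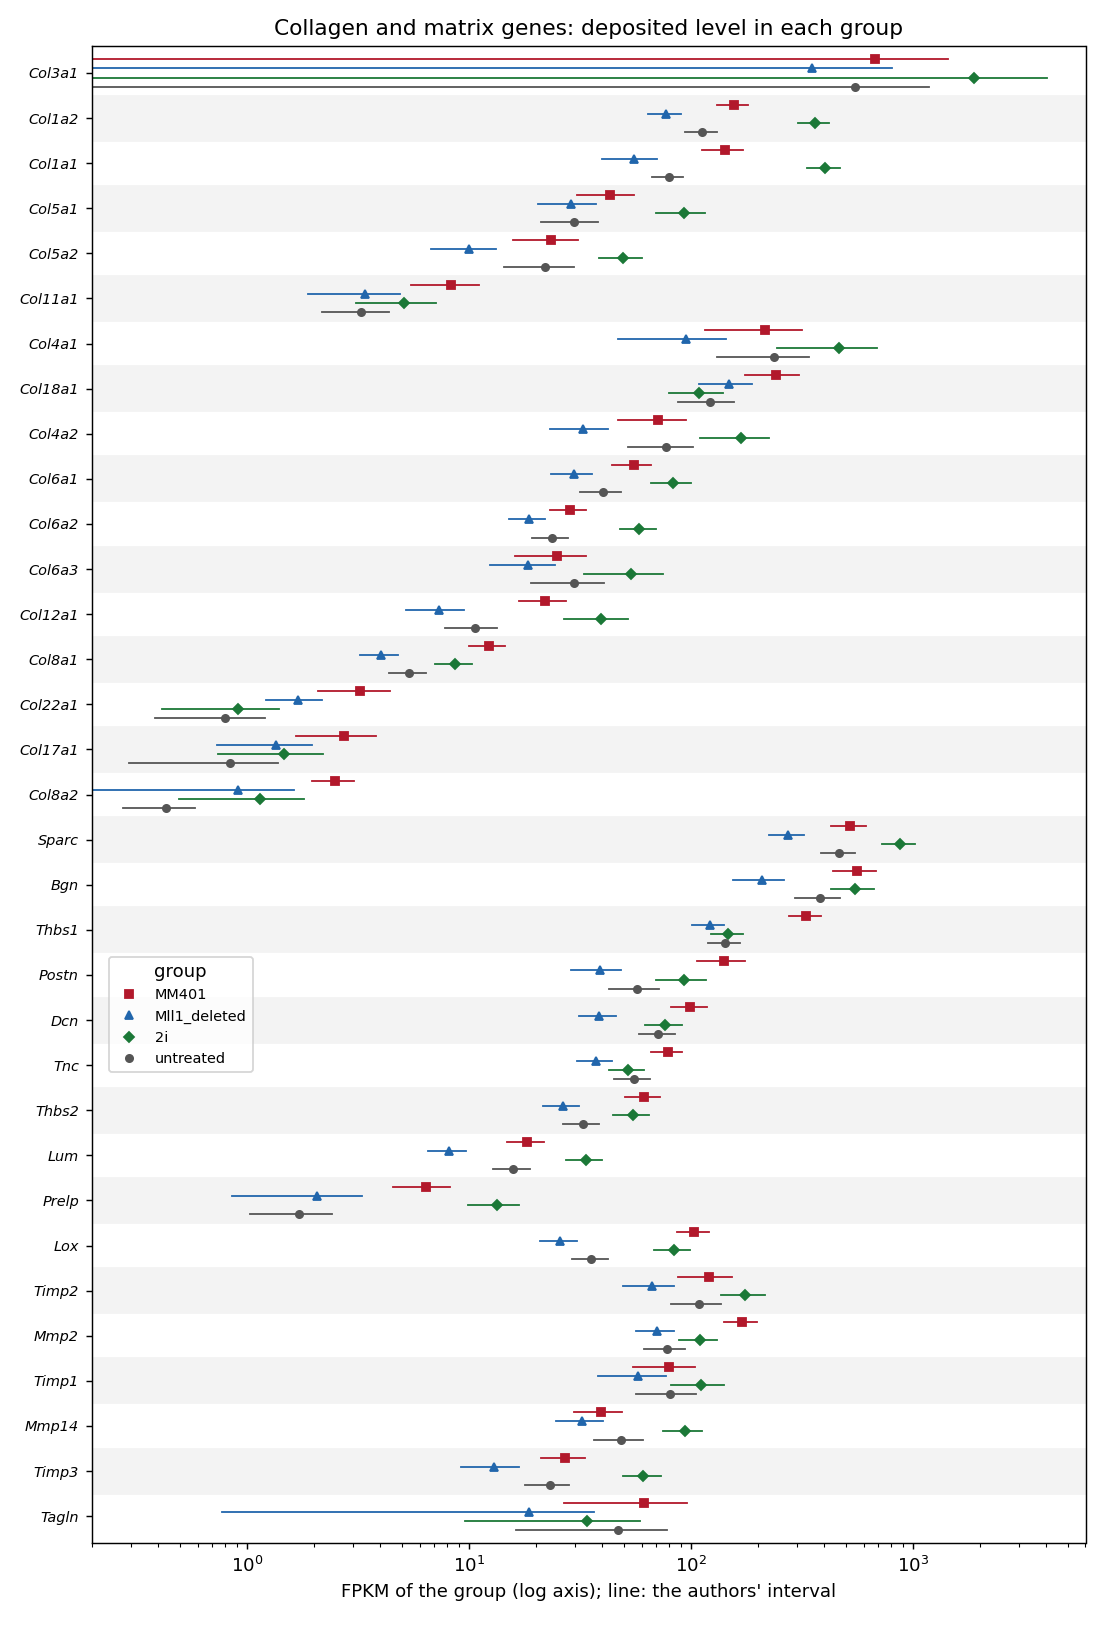
FPKM of 33 collagen and matrix genes (log axis) in MM401, Mll1_deleted, 2i and untreated cells, with 1 marker for each group and a line for the authors' interval. The 2i marker lies farthest right for Col3a1, Col1a1 and Col1a2, the MM401 marker for Thbs1 and Mmp2, and most Mll1_deleted markers lie at the left of their row.

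Of the 65 members, 55 reached 1 FPKM in some group and 10 stayed below it everywhere. Fn1 is among the 55. It encodes fibronectin, the glycoprotein on which cells and collagen fibres anchor. Its listed values were 643 FPKM in MM401, 664 in Mll1_deleted and 670 in 2i cells, against 639 in untreated cells, and its authors' intervals in the treated groups do not contain those values. For its status it was left out of the counts of genes higher or lower. Kmt2a, the gene of MLL1, had 14.6 [10.3 to 18.8] FPKM in MM401 cells, 11.8 [8.71 to 14.9] in Mll1_deleted cells and 8.72 [6.11 to 11.3] in 2i cells, against 15.5 [11.4 to 19.7] in untreated cells. A value over the whole gene does not measure loss of the floxed exons.

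With MM401 against untreated cells, 12 of 52 counted members were higher and 0 were lower, beside 7.04% of all counted loci higher and 6.08% lower. Their median log2 ratio was 0.49, beside -0.04 for all 16734 counted loci. Above 0 lay 45 of 52, beside 47.6% of all counted loci. The 12 were Lox, Prelp, Postn, Col8a2, Col22a1, Col9a3, Thbs1, Mmp2, Col11a1, Col8a1, Col17a1 and Col11a2, and all but Col9a3 and Col11a2 had separate intervals. Of all counted loci, 4.43% were higher and 4.02% lower with separate intervals.

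With the Mll1 deletion against untreated cells, 1 of 49 counted members was higher (Col9a3) and 4 were lower (Col4a1, Tagln, Col4a2 and Col5a2), beside 3.03% of all counted loci higher and 3.66% lower. By the estimated counts 3 were higher and 7 lower. Col9a3, with estimated counts of 3350 in Mll1_deleted and 2228 in untreated cells, was not among those higher. Col4a2 and Col5a2 had separate intervals, beside 1.51% of all counted loci higher and 2.04% lower with separate intervals. The median log2 ratio was -0.45, beside 0.05 for all 16191 counted loci, and 37 of 49 lay below 0. Of all counted loci, 56.2% lay above 0.

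In 2i against untreated cells, 13 of 49 counted members were higher and 0 were lower, beside 2.92% of all counted loci higher and 4.16% lower. The median log2 ratio was 0.63, beside 0.08 for all 16010 counted loci. Above 0 lay 42 of 49, beside 56.8% of all counted loci. The 13 were Prelp, Col1a1, Col12a1, Col3a1, Col1a2, Col5a1, Timp3, Col6a2, Lox, Col5a2, Col4a2, Lum and Col6a1, and all but Col3a1 had separate intervals, beside 1.71% of all counted loci higher and 2.16% lower in that way. These 3 comparisons share the untreated group, so they are not independent of each other. The shares of all counted loci given for them are also the background for the counts by role and by list below.

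**Figure D2:**
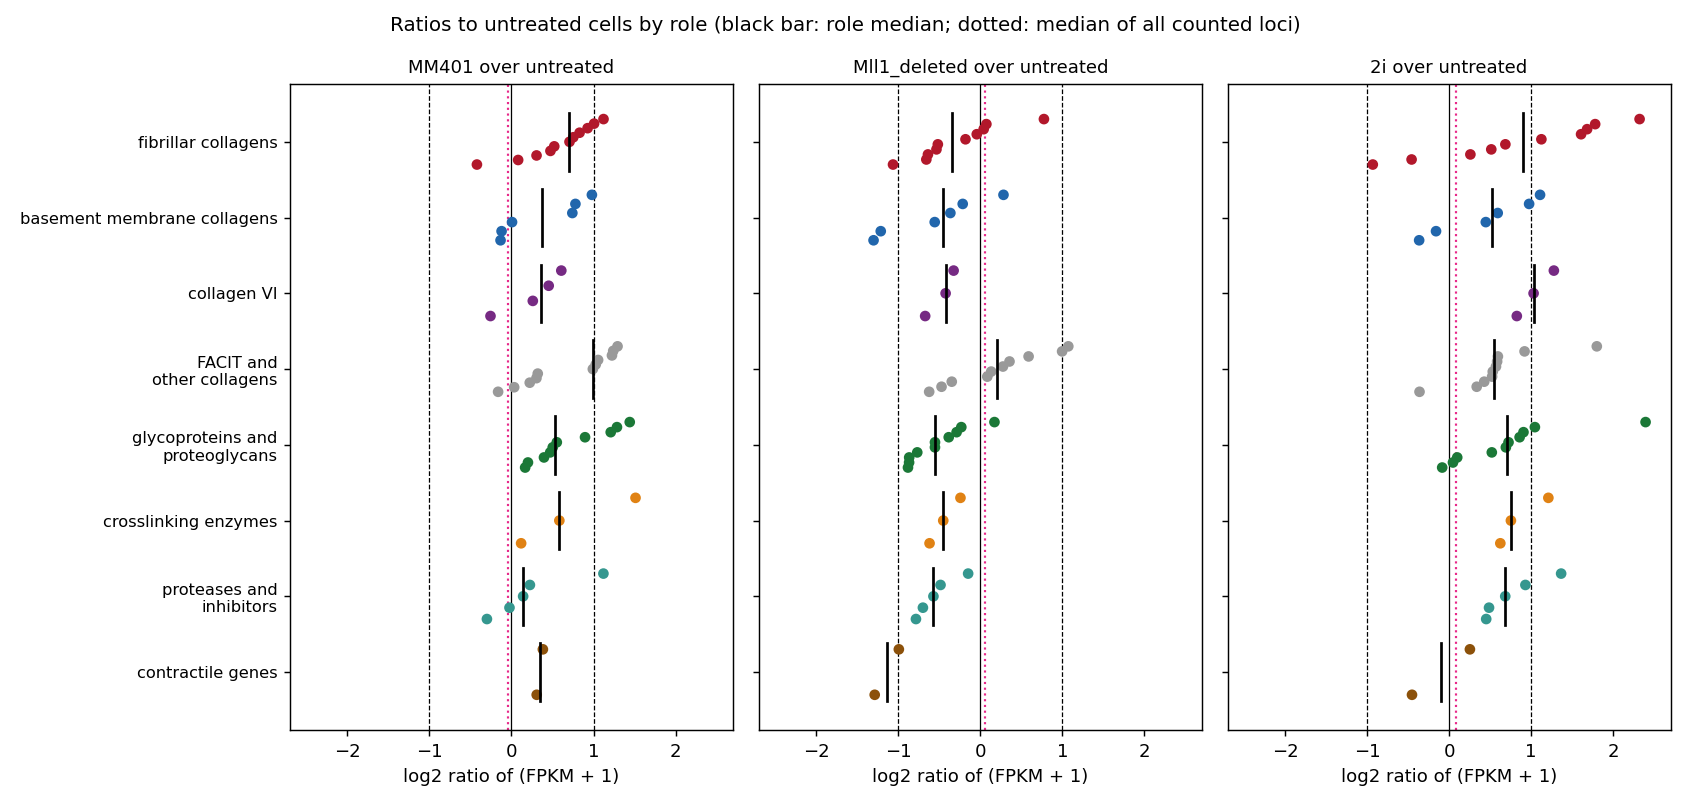
Log2 ratios of FPKM + 1 to untreated cells for the counted collagen and matrix genes by role, in MM401, Mll1_deleted and 2i cells; each point is a gene, black bars are role medians, dashed lines mark 2-fold and the dotted line is the median of all counted loci. Fibrillar collagens reach 2.32 in 2i cells (Col1a1), and the lowest point in Mll1_deleted cells is -1.30 (Col4a1).

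The promoter sequences of 4 members are shown, chosen after their values were seen: Col3a1, Col5a1 and Prelp were higher in 2i cells, and Prelp and Postn in MM401 cells. Each run holds the 250 bases before the RefSeq start, 5′ to 3′ along the gene (GRCm38.p6), in lower case. Capitals mark the 3 motifs searched, each on both strands: the CCAAT box (with the letters CCAAT), the TATA box (with the letters TATAAA) and the GC box (with the letters GGGCGG). They do not overlap each other in these windows. The windows are chr1:45311288-45311537 for Col3a1 (plus strand), chr2:27886175-27886424 for Col5a1 (plus strand), chr1:133921402-133921651 for Prelp (minus strand) and chr3:54360857-54361106 for Postn (plus strand).
Col3a1: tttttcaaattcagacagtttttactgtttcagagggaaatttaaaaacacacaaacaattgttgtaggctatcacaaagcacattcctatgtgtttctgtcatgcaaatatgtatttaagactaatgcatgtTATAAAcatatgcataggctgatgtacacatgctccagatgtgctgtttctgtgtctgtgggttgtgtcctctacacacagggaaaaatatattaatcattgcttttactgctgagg
Col5a1: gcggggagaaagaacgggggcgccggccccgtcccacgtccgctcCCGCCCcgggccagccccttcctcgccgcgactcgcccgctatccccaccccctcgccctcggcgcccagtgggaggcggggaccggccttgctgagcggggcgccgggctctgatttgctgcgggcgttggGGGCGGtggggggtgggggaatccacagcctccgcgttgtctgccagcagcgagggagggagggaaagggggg
Prelp: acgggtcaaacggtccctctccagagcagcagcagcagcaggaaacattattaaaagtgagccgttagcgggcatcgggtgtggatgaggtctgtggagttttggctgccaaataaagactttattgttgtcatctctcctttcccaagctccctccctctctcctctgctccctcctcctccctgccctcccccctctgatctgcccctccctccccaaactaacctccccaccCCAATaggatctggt
Postn: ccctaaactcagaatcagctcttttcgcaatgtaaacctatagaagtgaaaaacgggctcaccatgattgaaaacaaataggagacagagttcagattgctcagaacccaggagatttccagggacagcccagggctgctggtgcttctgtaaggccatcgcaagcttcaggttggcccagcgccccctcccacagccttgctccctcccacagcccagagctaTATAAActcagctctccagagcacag
Col3a1 held a TATA box 117 bases before the start, and the Postn window shown held it 26 bases before. RefSeq has a second Postn window, with none of the 3 motifs. Prelp held a CCAAT box 15 bases before its start. Col5a1 held a GC box 73 bases before its start and another, on the opposite strand, 205 bases before it, in a window with 76.4% G and C, against 35.2% in that of Col3a1. RefSeq windows were matched for 47 of the 65 members, with 52 windows in all. The GC box was in 57.7% of these and in 32.7% of all 32851 windows of that length, the CCAAT box in 34.6% and 33.8%, and the TATA box in 17.3% and 12.4%. A match describes these letters and is no evidence that a factor binds there.

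Among the 11 fibrillar collagens, Col1a1, Col1a2, Col3a1, Col5a1 and Col5a2 were highest in 2i cells. Of 10 counted, 5 were higher in 2i than in untreated cells and 0 were lower, with a median log2 ratio of 0.91. With MM401, 2 of 11 were higher (Col11a1 and Col11a2), and after Mll1 deletion 1 of 10 was lower (Col5a2).

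Col1a1 encodes the chain present in 2 copies in most type I collagen, the main protein of tendon, bone and skin. The gene lies on chromosome 11 at 94936224 to 94953042 (plus strand, GENCODE M21 on GRCm38). It had 142 [112 to 172] FPKM in MM401 cells, 55.3 [39.8 to 70.8] in Mll1_deleted cells and 402 [335 to 469] in 2i cells, against 79.5 [66.9 to 92.1] in untreated cells. The 2i interval lay above the other 3, and the MM401 interval above those of Mll1_deleted and untreated cells, which overlapped. The log2 ratio to untreated cells was 0.83 for MM401, -0.52 for Mll1_deleted and 2.32 for 2i, the largest among the collagens in 2i. Its partner chain Col1a2 had 157 [131 to 182] FPKM in MM401 cells, 77.3 [64.4 to 90.2] in Mll1_deleted cells and 363 [305 to 421] in 2i cells, against 112 [93.8 to 131] in untreated cells. These 4 intervals were all separate, in the order 2i, MM401, untreated and Mll1_deleted from high to low, and the log2 ratio in 2i cells was 1.68. The ratio of Col1a1 to Col1a2 FPKM was 0.908 in MM401, 0.715 in Mll1_deleted and 1.11 in 2i cells, against 0.707 in untreated cells.

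Col3a1, the chain of type III collagen of skin, vessels and other pliable tissues, had the highest single value of any member, in 2i cells. It had 676 [0 to 1439] FPKM in MM401 cells, 351 [0 to 807] in Mll1_deleted cells and 1884 [0 to 4039] in 2i cells, against 547 [0 to 1181] in untreated cells. The lower limits were 0 and all 4 intervals overlapped, so its log2 ratio of 1.78 in 2i cells is called by the fold alone. Its locus in the deposited table also carries the name AC125167.1, and reads of these genes could not be separated.

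Type V collagen sits within type I fibres and sets their width. Col5a1 had 43.1 [30.7 to 55.5] FPKM in MM401 cells, 28.8 [20.4 to 37.3] in Mll1_deleted cells and 92.8 [69.8 to 116] in 2i cells, against 29.7 [21.2 to 38.3] in untreated cells. The 2i interval lay above the other 3, which overlapped, with a log2 ratio of 1.61. Col5a2 had 23.4 [15.7 to 31.04] FPKM in MM401 cells, 10.03 [6.79 to 13.3] in Mll1_deleted cells and 49.3 [38.5 to 60.1] in 2i cells, against 22.1 [14.4 to 29.7] in untreated cells. Here 2i was above and Mll1_deleted below the overlapping pair of MM401 and untreated cells, and the log2 ratios were 1.13 for 2i and -1.06 for Mll1_deleted. Col3a1 and Col5a2 are neighbours on chromosome 1, on opposite strands with 24.6 kb between them.

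Type XI collagen, better known from cartilage, followed another order. Col11a1 had 8.32 [5.49 to 11.2] FPKM in MM401 cells, 3.41 [1.90 to 4.92] in Mll1_deleted cells and 5.12 [3.09 to 7.15] in 2i cells, against 3.29 [2.18 to 4.39] in untreated cells. The MM401 interval lay above those of Mll1_deleted and untreated cells and overlapped that of 2i, with a log2 ratio of 1.12 to untreated. Col11a2, which also joins type XI fibres, had 2.40 FPKM in MM401, 0.593 in Mll1_deleted and 0.644 in 2i cells, against 0.692 in untreated cells, with a log2 ratio of 1.01 for MM401 and overlapping intervals. Col2a1, the main collagen of cartilage, was read in 1 of the 2 loci that carry its name. It had 5.33 FPKM in MM401, 2.50 in Mll1_deleted and 0.748 in 2i cells, against 2.33 in untreated cells. Its log2 ratio in 2i cells was -0.93, under the 2-fold rule although the intervals were separate. The other fibrillar members (Col5a3, Col27a1 and Col24a1) stayed below 5 FPKM in every group.

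The basement membrane collagens had 9 members, 6 of them counted. In Mll1_deleted cells 2 of these were lower, in 2i cells 1 was higher, and with MM401 none changed by the rule. Col4a1 and Col4a2 encode the chains of the common type IV collagen network. They lie head to head on chromosome 8, with RefSeq starts 21 bases apart on opposite strands. Col4a1 had 216 [116 to 315] FPKM in MM401 cells, 95.5 [47.1 to 144] in Mll1_deleted cells and 467 [245 to 688] in 2i cells, against 237 [132 to 342] in untreated cells. Its log2 ratio was -1.30 in Mll1_deleted and 0.98 in 2i cells, just short of 2-fold, and only the Mll1_deleted and 2i intervals were separate from each other. Col4a2 had 70.97 [46.96 to 94.98] FPKM in MM401 cells, 32.8 [23.3 to 42.3] in Mll1_deleted cells and 168 [109.8 to 226] in 2i cells, against 77.3 [52.2 to 102] in untreated cells. The 2i interval was the highest and the Mll1_deleted interval the lowest, each separate from the other groups, with log2 ratios of 1.11 and -1.21 to untreated cells. The ratio of Col4a1 to Col4a2 FPKM stayed between 2.78 and 3.06 in the 4 groups.

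Col18a1 encodes the collagen that releases endostatin and carries heparan sulfate. It had 242 [176 to 307] FPKM in MM401 cells, 149 [108 to 189] in Mll1_deleted cells and 109 [79.5 to 139] in 2i cells, against 122 [87.3 to 157] in untreated cells. The MM401 value was the highest and its interval separate from those of 2i and untreated cells, with log2 ratios of 0.98 to untreated and 1.14 to 2i cells. Among the others, the highest value was 7.16 FPKM in MM401 cells for Col7a1 (the anchoring fibrils of skin, in a joint locus with Mir711), and none of them passed the rule against untreated cells. Col4a3, Col4a4 and Col4a6, chains of specialised basement membranes, stayed below 1 FPKM.

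Type VI collagen forms beaded filaments around cells, and 3 of its 6 genes were above 10 FPKM in every group. Col6a1 had 55.2 [43.97 to 66.5] FPKM in MM401 cells, 29.6 [23.5 to 35.8] in Mll1_deleted cells and 82.9 [66.1 to 99.7] in 2i cells, against 40.1 [31.8 to 48.4] in untreated cells. The 2i interval lay above those of Mll1_deleted and untreated cells, with a log2 ratio of 1.03 to untreated, and 0.95 when each ratio was centred on the median of all counted loci. Col6a2 had 28.5 [23.2 to 33.8] FPKM in MM401 cells, 18.7 [15.2 to 22.1] in Mll1_deleted cells and 58.7 [47.96 to 69.5] in 2i cells, against 23.6 [19.2 to 28.00] in untreated cells. The 2i interval was above the other 3, with a log2 ratio of 1.28. Col6a3 had 24.9 [16.1 to 33.6] FPKM in MM401 cells, 18.4 [12.4 to 24.4] in Mll1_deleted cells and 53.8 [32.9 to 74.7] in 2i cells, against 29.9 [19.01 to 40.8] in untreated cells. Its log2 ratio in 2i cells was 0.83, under the rule, and only the Mll1_deleted and 2i intervals were separate. Col6a4, Col6a5 and Col6a6 did not pass 2 FPKM in any group.

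The FACIT collagens, which decorate fibres, and the remaining collagens had 18 members. With MM401, 5 of 11 counted were higher and 0 lower, with a median log2 ratio of 0.99, the highest median of any role in that comparison. Of 10 counted in each, 1 was higher in 2i (Col12a1) and 1 in Mll1_deleted cells (Col9a3, intervals overlapping). In Mll1_deleted over untreated cells 7 of the 10 ratios lay above 0. Their median was 0.20, unlike the median of -0.45 over all counted members.

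Col12a1, found on type I fibres of dense connective tissue, had 22.1 [16.8 to 27.4] FPKM in MM401 cells, 7.38 [5.24 to 9.52] in Mll1_deleted cells and 39.5 [26.9 to 52.1] in 2i cells, against 10.6 [7.83 to 13.4] in untreated cells. Both the 2i and the MM401 interval lay above those of Mll1_deleted and untreated cells. The log2 ratio was 1.80 in 2i cells and 0.99 with MM401, just short of 2-fold. Type VIII collagen forms a lattice in vessel walls and the cornea. Col8a1 had 12.3 [10.01 to 14.6] FPKM in MM401 cells, 4.03 [3.24 to 4.82] in Mll1_deleted cells and 8.67 [7.04 to 10.3] in 2i cells, against 5.399 [4.36 to 6.44] in untreated cells, with a log2 ratio of 1.06 for MM401. Col8a2 had 2.51 [1.97 to 3.05] FPKM in MM401 cells, 0.910 [0.186 to 1.63] in Mll1_deleted cells and 1.15 [0.497 to 1.80] in 2i cells, against 0.432 [0.276 to 0.587] in untreated cells. For this low gene the MM401 interval was above the other 3, with a log2 ratio of 1.29.

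Col22a1, a collagen of tissue junctions, had 3.24 [2.08 to 4.40] FPKM in MM401 cells, 1.70 [1.23 to 2.18] in Mll1_deleted cells and 0.910 [0.416 to 1.40] in 2i cells, against 0.795 [0.385 to 1.21] in untreated cells. The MM401 interval lay above those of 2i and untreated cells, and the log2 ratio to untreated was 1.24. Col17a1, a membrane collagen of epithelial hemidesmosomes, had 2.74 [1.66 to 3.82] FPKM in MM401 cells, 1.35 [0.733 to 1.97] in Mll1_deleted cells and 1.47 [0.742 to 2.20] in 2i cells, against 0.837 [0.295 to 1.38] in untreated cells. Its MM401 and untreated intervals were separate, with a log2 ratio of 1.03. Col9a3, a chain of cartilage type IX collagen, had 5.90 FPKM in MM401, 5.22 in Mll1_deleted and 2.73 in 2i cells, against 1.95 in untreated cells. Its intervals overlapped, and the log2 ratios were 1.22 for MM401 and 1.07 for Mll1_deleted. Its estimated counts were 4492 in MM401, 3350 in Mll1_deleted and 795 in 2i cells, against 2228 in untreated cells. By these it was lower in 2i than in untreated cells, opposite to FPKM, and short of 2-fold in Mll1_deleted cells. In the annotation 6.07% of its exon bases are shared with Tcfl5. Col20a1 was listed at 34.2 to 49.9 FPKM, in a locus joined with Arfgap1 and 9230112E08Rik. Col9a1 and Col19a1 were below 0.05 FPKM in every group.

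Among the 11 glycoproteins and small leucine-rich proteoglycans, 10 were counted. Against untreated cells 3 were higher with MM401 (Prelp, Postn and Thbs1), 2 in 2i (Prelp and Lum) and 0 after Mll1 deletion, where 9 of 10 ratios lay below 0 with a median of -0.55.

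Prelp, a heparin-binding leucine-rich protein that links basement membranes to connective tissue, had the largest ratio to untreated cells of any member. It had 6.41 [4.57 to 8.24] FPKM in MM401 cells, 2.07 [0.854 to 3.29] in Mll1_deleted cells and 13.4 [9.95 to 16.7] in 2i cells, against 1.73 [1.04 to 2.42] in untreated cells. The 2i interval was the highest, MM401 came next, and Mll1_deleted and untreated cells overlapped. The log2 ratios to untreated cells were 1.44 for MM401, 0.17 for Mll1_deleted and 2.40 for 2i. In the annotation 9.68% of its exon bases are shared with Gm15851. Lum (lumican, which spaces collagen fibrils) had 18.3 [14.9 to 21.8] FPKM in MM401 cells, 8.12 [6.52 to 9.72] in Mll1_deleted cells and 33.7 [27.5 to 39.95] in 2i cells, against 15.8 [12.8 to 18.8] in untreated cells. The 2i interval was above and the Mll1_deleted interval below the overlapping pair of MM401 and untreated cells, with log2 ratios of 1.05 (0.96 when centred) and -0.88. Dcn (decorin, another fibril-coating proteoglycan) had 99.6 [81.4 to 118] FPKM in MM401 cells, 38.7 [31.5 to 45.99] in Mll1_deleted cells and 76.7 [62.5 to 90.9] in 2i cells, against 71.5 [58.2 to 84.8] in untreated cells. The Mll1_deleted interval lay below the other 3, which overlapped, and the log2 ratio in Mll1_deleted cells was -0.87. Dcn and Lum are neighbours on chromosome 10, with 47.0 kb between them. Bgn (biglycan, close kin of decorin) had 561 [435 to 686] FPKM in MM401 cells, 209 [155 to 263] in Mll1_deleted cells and 549 [427 to 671] in 2i cells, against 382 [295 to 469] in untreated cells. It too was lowest in Mll1_deleted cells, with an interval below the other 3 and a log2 ratio of -0.87.

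Thbs1 (thrombospondin-1, an adhesion protein that can activate TGF-beta, at 118111876 to 118127133 on chromosome 2) had 331 [277 to 386] FPKM in MM401 cells, 121 [102 to 141] in Mll1_deleted cells and 148 [123 to 172] in 2i cells, against 143 [119 to 166] in untreated cells. The MM401 interval lay above the other 3, which overlapped, with a log2 ratio of 1.21. Thbs2, its relative that binds matrix metalloproteinases, had 61.7 [50.4 to 72.9] FPKM in MM401 cells, 26.6 [21.7 to 31.4] in Mll1_deleted cells and 54.7 [44.7 to 64.6] in 2i cells, against 32.7 [26.7 to 38.7] in untreated cells. MM401 and 2i intervals were above those of Mll1_deleted and untreated cells, with log2 ratios to untreated of 0.90 and 0.73, both under 2-fold. Postn (periostin, a matricellular protein that promotes crosslinking) had 141 [107 to 176] FPKM in MM401 cells, 38.8 [28.9 to 48.7] in Mll1_deleted cells and 93.4 [69.7 to 117] in 2i cells, against 57.4 [42.8 to 72.02] in untreated cells. The MM401 interval was above those of Mll1_deleted and untreated cells, and the log2 ratio was 1.29. Tnc (tenascin-C, a matrix protein of developing and healing tissue) had 78.9 [66.4 to 91.5] FPKM in MM401 cells, 37.5 [30.6 to 44.3] in Mll1_deleted cells and 52.2 [42.7 to 61.8] in 2i cells, against 55.4 [45.3 to 65.5] in untreated cells. MM401 was above the other 3 groups, with a log2 ratio of 0.50 to untreated, under the rule. Sparc (osteonectin, a collagen-binding protein also abundant in parietal endoderm) had 524 [429 to 618] FPKM in MM401 cells, 274 [224 to 323] in Mll1_deleted cells and 876 [726 to 1026] in 2i cells, against 467 [385 to 548] in untreated cells. The 2i interval was the highest and the Mll1_deleted interval the lowest, each separate from the rest, with log2 ratios of 0.91 and -0.77. Fbn1 (fibrillin-1, of elastic microfibrils) was counted too and reached 25.0 FPKM in 2i cells.

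Of the lysyl oxidases, which crosslink collagen and elastin, Lox had 104 [86.98 to 120.2] FPKM in MM401 cells, 25.8 [20.96 to 30.7] in Mll1_deleted cells and 83.9 [68.5 to 99.3] in 2i cells, against 35.7 [29.1 to 42.2] in untreated cells. MM401 and 2i intervals overlapped each other and lay above those of Mll1_deleted and untreated cells. The log2 ratios to untreated cells were 1.51 for MM401, the largest of any member in that comparison, -0.45 for Mll1_deleted and 1.21 for 2i. Loxl1 had 26.1 FPKM in MM401, 14.3 in Mll1_deleted and 29.5 in 2i cells, against 17.1 in untreated cells, and Loxl2 had 13.7 FPKM in MM401, 7.85 in Mll1_deleted and 19.96 in 2i cells, against 12.6 in untreated cells. No comparison of these relatives with untreated cells reached 2-fold, and Loxl2 was listed in a joint locus with Gm21451 and Mir6950.

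Mmp2 (gelatinase A, which cuts type IV collagen and denatured fibrils) had 171 [142 to 199.5] FPKM in MM401 cells, 70.3 [56.9 to 83.6] in Mll1_deleted cells and 109.7 [88.5 to 131] in 2i cells, against 77.9 [61.9 to 94.04] in untreated cells. The MM401 interval lay above the other 3, with a log2 ratio of 1.12. Mmp14, the membrane protease that activates Mmp2, had 39.4 [29.8 to 48.9] FPKM in MM401 cells, 32.5 [24.6 to 40.3] in Mll1_deleted cells and 93.8 [74.7 to 113] in 2i cells, against 48.7 [36.7 to 60.7] in untreated cells. Its 2i interval lay above the other 3, with a log2 ratio of 0.93, under the rule. Mmp2 was thus highest with MM401 and Mmp14 in 2i cells, and their log2 ratios in MM401 over 2i cells were 0.63 for Mmp2 and -1.23 for Mmp14.

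The tissue inhibitors of metalloproteinases were highest in 2i cells. Timp3, the matrix-bound inhibitor, had 27.2 [21.1 to 33.3] FPKM in MM401 cells, 13.01 [9.25 to 16.8] in Mll1_deleted cells and 61.2 [49.3 to 73.2] in 2i cells, against 23.1 [18.01 to 28.2] in untreated cells. The 2i interval was above and the Mll1_deleted interval below the overlapping pair of MM401 and untreated cells, with log2 ratios of 1.37 and -0.78. In the annotation 21.3% of its exon bases are shared with Syn3. Timp2, which inhibits and also helps activate Mmp2, had 121 [87.8 to 153] FPKM in MM401 cells, 66.9 [49.7 to 83.99] in Mll1_deleted cells and 176 [137 to 215] in 2i cells, against 109 [81.8 to 137] in untreated cells. Timp1, the inducible inhibitor, had 79.6 [55.00 to 104] FPKM in MM401 cells, 57.6 [38.01 to 77.2] in Mll1_deleted cells and 111 [81.4 to 141] in 2i cells, against 81.01 [56.9 to 105] in untreated cells. The 2i interval of Timp2 lay above those of Mll1_deleted and untreated cells, while for Timp1 only the Mll1_deleted and 2i intervals were separate. Neither passed the rule, and their log2 ratios in 2i cells were 0.69 and 0.45. The ratio of Timp1 to Mmp2 FPKM was 0.467 in MM401, 0.820 in Mll1_deleted and 1.01 in 2i cells, against 1.04 in untreated cells.

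The contractile genes Tagln and Acta2 mark smooth muscle and activated fibroblasts. Tagln (transgelin, an actin-binding protein) had 61.8 [26.9 to 96.6] FPKM in MM401 cells, 18.7 [0.777 to 36.7] in Mll1_deleted cells and 34.2 [9.59 to 58.8] in 2i cells, against 47.1 [16.4 to 77.9] in untreated cells. All 4 intervals overlapped, and the log2 ratio for Mll1_deleted was -1.29. Because 67.9% of its annotated exon bases are shared with Pcsk7 and Gm48529, its values may hold fragments of those genes. Acta2 (smooth muscle actin) had 21.99 FPKM in MM401, 8.34 in Mll1_deleted and 21.2 in 2i cells, against 17.6 in untreated cells, with a log2 ratio of -0.99 for Mll1_deleted, just short of 2-fold, and separate intervals.

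Set against each other, the 2 Mll1 treatments gave matrix levels that were for the most part higher with MM401. In MM401 over Mll1_deleted cells 23 of 52 counted members were higher and 1 was lower (Col13a1), beside 5.49% of all counted loci higher and 5.03% lower. The median log2 ratio was 0.94, beside -0.09 for all counted loci. Above 0 lay 48 of 52, beside 42.9% of all counted loci. Of the 23, 20 had separate intervals, beside 3.37% of all counted loci higher and 3.11% lower in that way. The largest ratios were 1.96 for Lox, 1.84 for Postn and 1.67 for Tagln. By role, the glycoproteins and proteoglycans had 8 of 10 higher with a median of 1.23, the fibrillar collagens 5 of 10 with a median of 0.98, and collagen VI 0 of 4 with a median of 0.60. Col13a1, a membrane collagen, had 0.892 FPKM in MM401, 2.98 in Mll1_deleted and 0.859 in 2i cells, against 0.995 in untreated cells, in 1 of the 4 loci that carry its name.

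In Mll1_deleted over 2i cells, of 50 counted members 2 were higher (Col2a1 and Col13a1) and 25 were lower, beside 5.97% of all counted loci higher and 5.18% lower. The median log2 ratio was -1.005, beside -0.02 for all counted loci, and 23 of the 25 had separate intervals, beside 3.43% of all counted loci higher and 3.43% lower in that way. Col1a1 had the lowest ratio, -2.84, followed by Col3a1 at -2.42 and Col4a2 at -2.32. All 3 counted collagen VI genes were lower, with a median of -1.50.

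In MM401 over 2i cells 5 of 52 counted members were higher (Col2a1, Col11a2, Col18a1, Col22a1 and Thbs1) and 11 were lower (Col1a1, Col1a2, Col3a1, Col4a1, Col4a2, Col5a1, Col5a2, Col6a2, Col6a3, Mmp14 and Timp3), beside 10.4% of all counted loci higher and 11.1% lower. The share higher, 9.62%, was near that background, and the share lower was 21.2%. With members of at least 5 FPKM only, 3 were higher and the median was -0.47. The median log2 ratio was 0.04, beside -0.08 for all counted loci. All 5 of those higher and 8 of the 11 lower had separate intervals, beside 6.45% of all counted loci higher and 8.26% lower in that way. The ratio of Thbs1 to Col1a1 FPKM was 2.33 in MM401, 2.20 in Mll1_deleted and 0.367 in 2i cells, against 1.80 in untreated cells. The ratio of Col1a1 to Dcn FPKM was 1.43 in MM401, 1.43 in Mll1_deleted and 5.24 in 2i cells, against 1.11 in untreated cells.

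**Figure D3:**
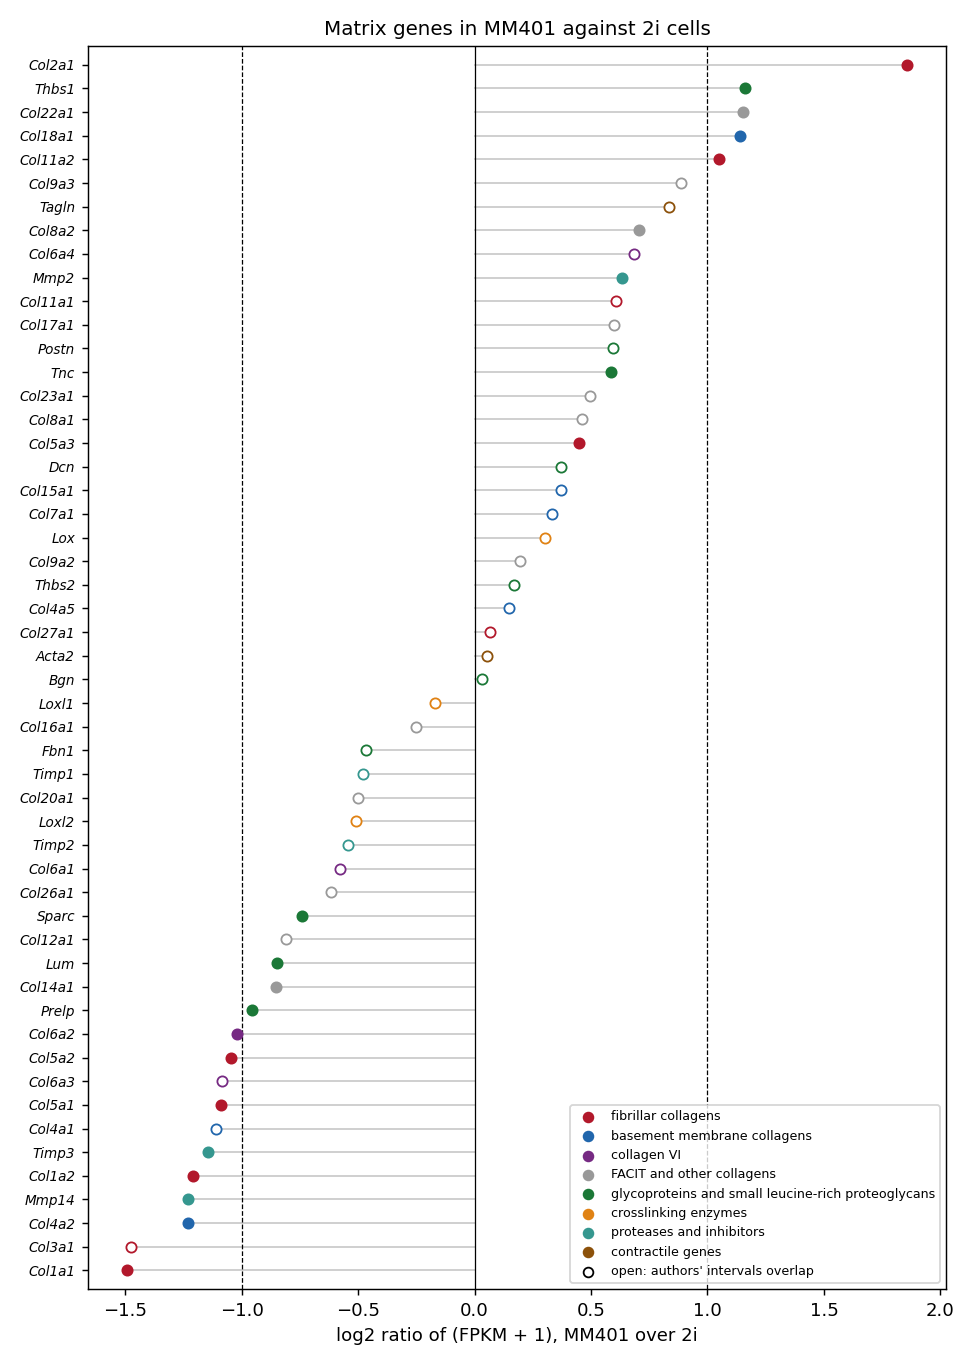
Log2 ratio of FPKM + 1 in MM401 over 2i cells for each counted collagen and matrix gene, coloured by role; dashed lines mark 2-fold, and open circles have overlapping authors' intervals. The ratios run from -1.49 (Col1a1) to 1.86 (Col2a1), and the low end holds Col1a1, Col1a2, Col3a1, Col4a1, Col4a2, Col5a1 and Col5a2.

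The proteins that fold, modify and process collagen were looked at as a separate list of 28 genes. In 2i cells 1 of 26 counted was higher and 0 were lower, beside 2.92% of all counted loci higher and 4.16% lower. Of the ratios, 23 of 26 lay above 0, beside 56.8% of all counted loci. Their median was 0.64, beside 0.08 for all counted loci. The 1 higher gene was Serpinh1 (HSP47, the collagen chaperone), with 477 [397 to 558] FPKM in 2i and 234 [195 to 272] in untreated cells, a log2 ratio of 1.03. With MM401 the list's median was 0.08. Of 27 counted, 1 was higher, P4ha2 (a prolyl hydroxylase subunit) at 1.07, and 1 lower, Pcolce2 (a procollagen processing enhancer) at -1.34. Of all counted loci, 7.04% were higher and 6.08% lower. After Mll1 deletion the median was -0.21. Of 27 counted, 1 was higher, Plod1 (a lysyl hydroxylase) at 1.18, and 1 lower, P3h2 (a prolyl 3-hydroxylase) at -1.06. The shares of all counted loci there were 3.03% higher and 3.66% lower.

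Of 15 laminins and other basement membrane genes, 12 were counted, with medians of 0.42 for MM401, 0.36 for Mll1_deleted and 0.28 for 2i. Lama4 (a laminin chain of vessel and muscle) was higher with MM401, at 1.15. Lama1 (the laminin chain of the early embryo) was lower after Mll1 deletion, with 35.9 [28.3 to 43.6] FPKM in Mll1_deleted and 90.2 [72.5 to 108] in untreated cells. In 2i cells none passed the rule.

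TGF-beta signalling induces many matrix genes, and its ligands and targets were listed too (13 genes, all counted). With MM401 2 were higher, among them Ctgf (connective tissue growth factor), with 155 FPKM in MM401 and 49.1 in untreated cells. After Mll1 deletion 0 passed the rule, and Tgfbr2 (a receptor of the pathway) had the largest ratio among those of at least 5 FPKM, -0.90. In 2i cells 1 was lower, Skil (a repressor of the pathway), at -1.13. The list's medians were 0.30 for MM401, -0.16 for Mll1_deleted and 0.20 for 2i.

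Fibroblasts are known to make most of the proteins described here, so 15 other fibroblast genes, none a member, were read beside them. Their summed FPKM was 735 in MM401, 453 in Mll1_deleted and 1100 in 2i cells, against 772 in untreated cells. All but Tcf21 were at 1 FPKM or more in every group, and none was at 0. In Mll1_deleted cells 13 of 14 counted ratios lay below 0, with a median of -0.54, and 1 was lower by the rule (S100a4, at -2.12). S100a4 was listed in a joint locus with Gm42674 and S100a3. In 2i cells 11 of 14 lay above 0, with a median of 0.51, and 1 was higher (Cd248, at 1.70). With MM401 12 of 14 lay above 0, with a median of 0.27, and 1 was lower (S100a4, at -1.79). Vim, the largest single value in the sum of each group, had 326 FPKM in MM401, 237 in Mll1_deleted and 601 in 2i cells, against 433 in untreated cells. The sum was lower with MM401 than in untreated cells, as were Vim and S100a4, although 12 of the 14 ratios lay above 0. Pdgfra, in a joint locus with Mir7025, had 41.8 FPKM in MM401, 23.7 in Mll1_deleted and 22.6 in 2i cells, against 29.5 in untreated cells. Its estimated counts followed another order, with 11451 in MM401, 6272 in Mll1_deleted and 11127 in 2i cells, against 11951 in untreated cells. The part of these fibroblast levels in the collagen and matrix values was not tested.

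Of 12 parietal and primitive endoderm genes, 11 were counted, and all 12 were at 1 FPKM or more in every group. After Mll1 deletion 6 of 11 were lower and all 11 ratios lay below 0, with a median of -1.02, and the lowest was Foxa2 at -1.64. With MM401 2 were lower, with a median of -0.52, and Amn was lowest at -1.82. In 2i cells 1 was higher, Sox17, with 31.0 [24.4 to 37.6] FPKM in 2i and 12.6 [9.75 to 15.4] in untreated cells, and the median was 0.20. Without Lamb1, which had the status FAIL in MM401, 2i and untreated cells, summed FPKM of the other 11 genes was 178 in MM401, 116 in Mll1_deleted and 298 in 2i cells, against 248 in untreated cells. With it the sum was 524 in MM401, 285 in Mll1_deleted and 643 in 2i cells, against 534 in untreated cells. Lama1 and Lamb1 stand on this list and on that of the laminins. The part of these endoderm levels in the Col4a1, Col4a2 and Sparc values was not tested.

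Of 7 smooth muscle genes, 5 were counted, with medians of 0.50 for MM401, 0.07 for Mll1_deleted and 0.04 for 2i. With MM401 1 of the 5 was higher, Des (desmin), at 1.96. In Mll1_deleted cells 2 of the 5 were higher with separate intervals, Des at 1.28 and Smtn at 1.13. The members Tagln and Acta2 had ratios of -1.29 and -0.99 there. Of the 5 endothelial genes, Tek and, in MM401 and 2i cells, 1 other were at 1 FPKM or more, and of the 4 macrophage genes only Cd68 was, in every group. None of these genes was at 0. Of the 8 pluripotency genes, Dppa5a alone, in a joint locus, had 8828 FPKM in MM401, 8382 in Mll1_deleted and 5734 in 2i cells, against 7220.0 in untreated cells. The other 7 summed to 1202 FPKM in MM401, 2896 in Mll1_deleted and 2667 in 2i cells, against 2349 in untreated cells. With MM401 3 of 8 were lower, and Utf1 had 103 [83.7 to 122] FPKM in MM401 and 332 [271 to 392] in untreated cells. In Mll1_deleted and in 2i cells 0 of 8 passed the rule.

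**Figure D4:**
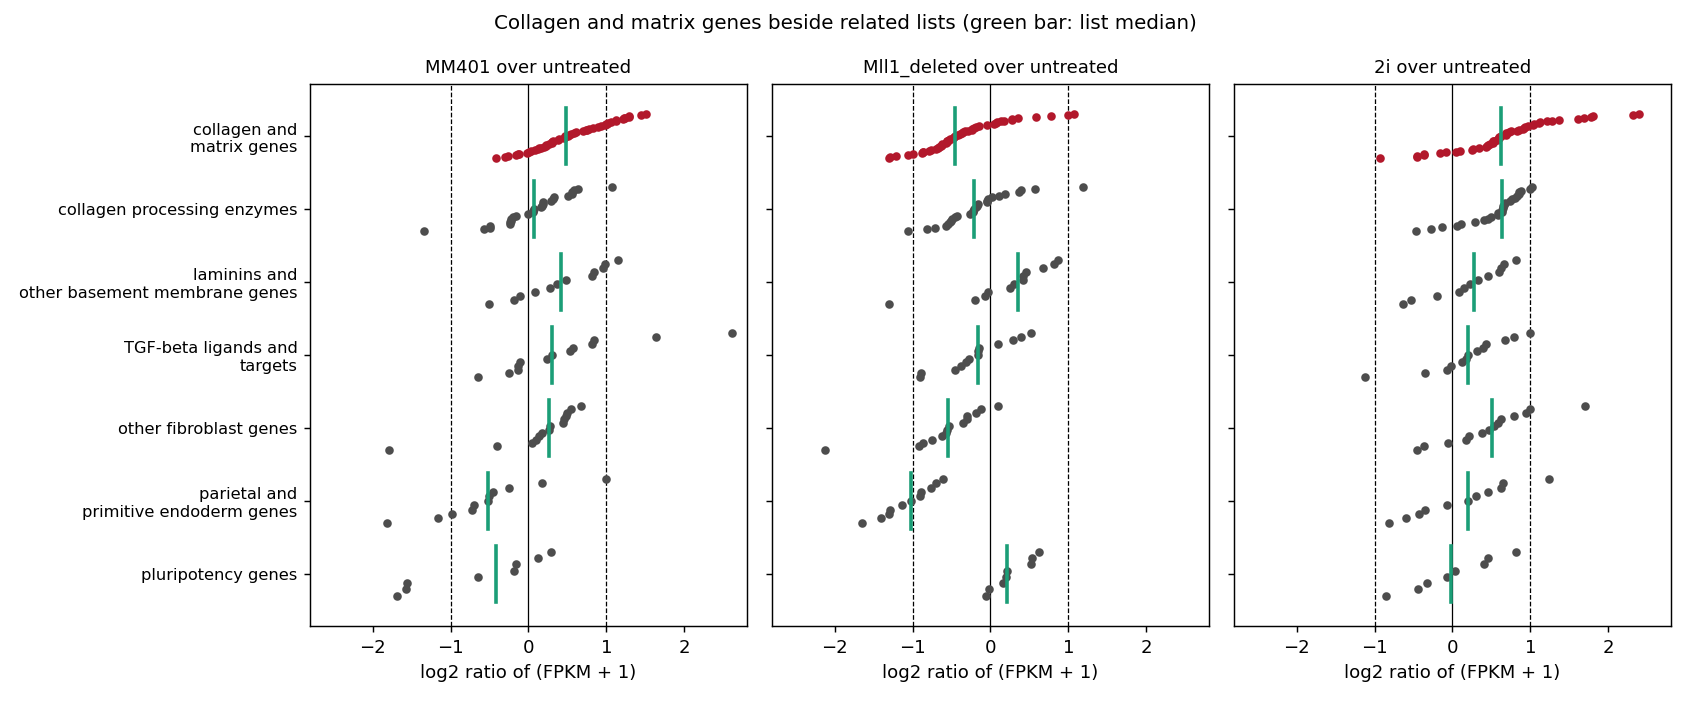
Log2 ratios of FPKM + 1 to untreated cells for the counted collagen and matrix genes and 6 related gene lists, in MM401, Mll1_deleted and 2i cells; points are genes, green bars list medians and dashed lines 2-fold. From left to right the medians of the collagen and matrix genes are 0.49, -0.45 and 0.63, and those of the other fibroblast genes 0.27, -0.54 and 0.51.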

How the data were processed

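Per the file headers, the deposited tables hold FPKM with lower and upper limits and a status, and estimated counts with their variances and uncertainties, at 61535 loci; the variance values were not used. The authors had combined the 2 libraries of each group into 1 column. Per the submitters' processing notes the build was mm10 and the tools included SAMtools 1.5, TopHat2 2.1.1 and deepTools, with roles, counting program and strandedness not given in the sources used here. The planned analysis for such tables was used, with no test. A symbol was taken at its locus of highest mean FPKM. Ratios used a pseudocount of 1, which understates changes of low genes. Loci without a name (11475) were left out. Exon overlap came from GENCODE M21. Python 3.11.15, pandas 2.3.3 and numpy 2.4.6 were used. The code for the calls was checked on changes planted, without added noise, in a copy of the untreated values. That check does not measure how reliable the calls are. Named in full are members of at least 50 FPKM in any group or past 2-fold with separate intervals against untreated. Other members are examples, and list genes have the largest ratio at 5 FPKM or more, or passed the rule; some that this rule names are not reported here. Members and lists were chosen with earlier results of these data known. Alternatives were a pseudocount of 0.1, a filter at 5 FPKM, no filter, median centring, estimated counts with a pseudocount of 10, loci with 1 name, and separate intervals. Intervals widen with low depth.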

Additional observations from a re-analysis of the deposited data

How the results depend on the processing

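No paired analysis was possible because the tables hold 1 column per group, and for the same reason no library could be left out in turn. The counts higher with MM401 and in 2i cells over untreated cells stayed within 1.5 times of the value given under each alternative run (those that could not be run are named above), and their medians moved by at most 0.2. With a pseudocount of 0.1, 4 members were higher and not 1 in Mll1_deleted over untreated cells, 1 was lower in 2i over untreated cells, 9 were higher in MM401 over 2i cells and the median in Mll1_deleted over 2i cells was -1.26. With the filter at 5 FPKM, 0 were lower in MM401 over Mll1_deleted cells, 3 were higher in MM401 over 2i cells with a median of -0.47, and 0 were higher in Mll1_deleted over 2i cells with a median of -1.25. With estimated counts, 3 were higher and 7 lower in Mll1_deleted over untreated cells, 2 were lower in 2i over untreated cells, 9 were higher in MM401 over 2i cells and 4 in Mll1_deleted over 2i cells. Median centring left 1 lower in 2i over untreated cells and 0 lower in MM401 over Mll1_deleted cells. With separate intervals required, 0 were higher and 2 lower in Mll1_deleted over untreated cells, 0 were lower in MM401 over Mll1_deleted cells and 1 was higher in Mll1_deleted over 2i cells. Among single genes, Col6a1 (0.95) and Lum (0.96) missed 2-fold in 2i cells with median centring, and Col12a1 passed it with MM401 under 3 alternatives (1.03 to 1.19). No ratio past 2-fold against untreated cells changed sign. The median in MM401 over 2i cells did, as given, and also with estimated counts (-0.09). So did single values under 2-fold, such as Timp2 with MM401 (-0.06 by estimated counts). Col9a3 in 2i cells did so too, at 0.34 by FPKM, with estimated counts of 795 in 2i and 2228 in untreated cells. The cause of these changes was not tested. With 1 value per group, the spread between cultures is unknown, and members below 1 FPKM could not be compared at this depth.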
